A study of Homo sapiens with 16 samples.

Results

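Interferon-stimulated genes are the genes that cells switch on when an interferon binds its receptor, and 39 of them were followed here through RNA-seq of 2 leukaemia cell lines. The members were taken by symbol from the gene tables, and 38 of the 39 were matched among the 60357 genes listed. OAS1 was not matched by its symbol and is not analysed here. Of the 38 matched members, 32 reached 600 reads summed across the 12 libraries, the minimum for a test, and 6 (OAS2, OAS3, MX1, GBP1, IFI27 and IFI44L) did not.

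The study asked what happens in cells of acute myeloid leukaemia with the t(8;21) translocation when RUNX1/ETO, the fusion protein that it creates, is depleted with siRNA carried in lipid nanoparticles (LNPs). Kasumi-1 and SKNO-1, human lines that carry the fusion, were exposed to LNPs at 2 µg/ml for 24 h and harvested on day 3. LNP/siRE-mod holds a chemically modified siRNA against the fusion site and is labelled RUNX1/ETO knockdown, and LNP/siMM-mod holds a modified mismatch control and is labelled WT. There were 3 libraries for each line and siRNA, and their counts on genes ranged from 60559466 to 147990959. All 12 libraries came from LNP-treated cells, so every value is one under LNP exposure. The SKNO-1 medium also held the cytokine GM-CSF. The labels do not say whether libraries of a group came from separate cultures or are technical repeats, so the p-values measure only the spread between these libraries. That spread includes large differences between libraries of the same label, described below, and so is not replicate noise alone.

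Type I interferons signal through the receptor chains IFNAR1 and IFNAR2 and the kinases JAK1 and TYK2 to a complex that holds STAT2 and IRF9. This complex binds a short DNA element, the interferon-stimulated response element (ISRE), in front of its target genes. Interferon gamma signals through IFNGR1, IFNGR2, JAK1 and JAK2 and acts through a different element, called GAS. The targets include proteins that block virus entry, translation, replication or release, and some of them also feed back on the pathway. In leukaemia cells they are read as a measure of interferon signalling and of innate immune state. RUNX1 and the fusion bind the short motif TGTGGT.

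The 250 bases before the annotated start are shown for 6 members because the results turn on them and because they differ in the elements they hold. The sequences come from RefSeq on GRCh38.p14, which holds a promoter for 30 of the 38 members. For IFI16, IFITM1, IFITM3 and IFIT1 the RefSeq start lies inside the gene as annotated for the counts. Their windows therefore lie wholly or, for IFIT1, partly within that gene. They read 5′ to 3′ on the strand of the gene. Capitals mark matches to the ISRE letters (GAAA, any pair of bases, GAAA) on either strand in the first 5 sequences and matches to TGTGGT on either strand in that of IFI16.
IFIT5 at chr10:89414318-89414567 (forward strand): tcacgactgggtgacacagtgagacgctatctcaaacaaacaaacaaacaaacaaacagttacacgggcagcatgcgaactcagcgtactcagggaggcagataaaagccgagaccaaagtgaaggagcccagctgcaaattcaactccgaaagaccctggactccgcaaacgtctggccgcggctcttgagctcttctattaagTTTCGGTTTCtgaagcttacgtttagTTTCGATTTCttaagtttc
IFITM1 at chr11:313790-314039 (forward strand): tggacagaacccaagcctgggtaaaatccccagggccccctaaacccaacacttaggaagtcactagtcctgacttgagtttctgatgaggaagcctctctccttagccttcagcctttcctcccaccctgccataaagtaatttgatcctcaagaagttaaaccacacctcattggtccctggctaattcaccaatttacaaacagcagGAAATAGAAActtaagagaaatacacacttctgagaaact
IFITM3 at chr11:320861-321110 (reverse strand): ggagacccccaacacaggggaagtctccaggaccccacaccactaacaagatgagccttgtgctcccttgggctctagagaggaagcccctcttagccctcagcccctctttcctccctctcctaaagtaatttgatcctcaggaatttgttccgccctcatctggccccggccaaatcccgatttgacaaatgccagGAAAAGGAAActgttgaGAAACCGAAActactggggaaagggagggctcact
HERC5 at chr4:88456869-88457118 (forward strand): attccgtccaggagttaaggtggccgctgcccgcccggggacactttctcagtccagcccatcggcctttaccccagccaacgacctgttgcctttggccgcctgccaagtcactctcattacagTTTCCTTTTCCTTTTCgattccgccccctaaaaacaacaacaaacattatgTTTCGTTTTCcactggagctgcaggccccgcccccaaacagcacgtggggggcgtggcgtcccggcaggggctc
IFIT1 at chr10:89392373-89392622 (forward strand): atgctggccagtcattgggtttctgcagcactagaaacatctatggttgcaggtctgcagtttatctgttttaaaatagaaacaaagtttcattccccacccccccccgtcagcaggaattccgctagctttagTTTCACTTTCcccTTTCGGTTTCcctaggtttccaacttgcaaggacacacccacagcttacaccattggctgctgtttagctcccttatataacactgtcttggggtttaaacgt
IFI16 at chr1:159008741-159008990 (forward strand): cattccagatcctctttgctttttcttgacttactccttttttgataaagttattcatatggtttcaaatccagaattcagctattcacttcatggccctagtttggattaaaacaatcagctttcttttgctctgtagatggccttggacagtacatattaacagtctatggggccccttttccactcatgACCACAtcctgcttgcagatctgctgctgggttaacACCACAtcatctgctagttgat

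A match to the ISRE letters was present in 19 of the 30 member promoters (63.3%) and in 3.07% of all 27305 promoters of the same length. The GAS letters TTCNNNGAA were present in 6 of the 30 (20.0%) against 6.78% of all promoters, and TGTGGT in 3 of the 30 (10.0%) against 10.9%. Those 3 were IFI16, IFITM1 and STAT2. Distances are the bases between the end of a match and the start. In IFIT5 the ISRE matches ended 35 and 9 bases before the start, and in IFITM3 42 and 25. In HERC5 they ended 115, 109 and 64 bases before it, where the farther pair overlap, and in IFIT1 106 and 93. IFITM1 held 1 ISRE match 30 bases before the start and 1 TGTGGT match 82 bases before it. IFI16 held no ISRE match in this window and TGTGGT matches 52 and 16 bases before the start. A match describes letters in this window and is not evidence of a bound factor.

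The transcript that the siRNA targets contains RUNX1T1, the gene that encodes ETO, and its level did not follow the labels throughout. Kasumi-1 siMM-mod replicates 1 to 3 held RUNX1T1 at 296, 92.7 and 161 CPM (counts scaled to the library total, here with TMM normalisation across the 12 libraries), while the siRE-mod replicates held 44.3, 159 and 37.2. The SKNO-1 siMM-mod replicates held 329, 297 and 127 and the siRE-mod replicates 123, 164 and 40.4. The groups overlapped in both lines. The siRE-mod against siMM-mod log2 fold change of RUNX1T1 was −1.19 ± 0.71 (SE, 3 against 3 libraries, adjusted p = 0.392 by edgeR's quasi-likelihood test) for Kasumi-1, and −1.19 ± 0.57 (adjusted p = 0.491 by edgeR) for SKNO-1.

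CD34, a surface protein of stem and progenitor cells, and IL5RA, the interleukin-5 receptor alpha chain, split the libraries into sets that cross both the cell line and the siRNA label. In 6 libraries CD34 was between 117 and 420.2 normalised CPM and IL5RA at most 0.178, and in the other 6 CD34 was between 0.107 and 0.626 and IL5RA between 36.2 and 67.9. These are called the CD34-expressing and CD34-silent libraries below, and each set parts again by RUNX1T1. The CD34-expressing libraries with higher RUNX1T1 (296 to 329) were those labelled Kasumi-1 siMM-mod replicate 1, SKNO-1 siMM-mod replicate 1 and SKNO-1 siMM-mod replicate 2. Those with lower RUNX1T1 (92.7 to 127) were Kasumi-1 siMM-mod replicate 2, SKNO-1 siMM-mod replicate 3 and SKNO-1 siRE-mod replicate 1. The CD34-silent libraries with higher RUNX1T1 (159 to 164) were Kasumi-1 siMM-mod replicate 3, Kasumi-1 siRE-mod replicate 2 and SKNO-1 siRE-mod replicate 2. Those with lower RUNX1T1 (37.2 to 44.3) were Kasumi-1 siRE-mod replicate 1, Kasumi-1 siRE-mod replicate 3 and SKNO-1 siRE-mod replicate 3. Sets of 3 values are given in these orders throughout. Over all tested genes, Pearson's r of log2(normalised CPM + 0.5) was 0.979 to 0.998 between libraries of one such triplet and 0.875 to 0.997 between libraries that share line and siRNA label. No library pair agreed within sampling noise. Because the sets were read from measured values, they are described by the values of single libraries and by whether these overlap, and no test was made between them.

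The labelled cell type was checked against marker lists. The myeloid genes PTPRC, CD33, MPO, KIT and LYZ had counts in every library, with a summed level of 11546 to 23582 normalised CPM in the CD34-expressing and 2250.3 to 6736 in the CD34-silent libraries. All 3 T cell, 3 erythroid and 3 stromal markers together stayed at or under 1.23 normalised CPM a list, the B cell markers at or under 3.12 with MS4A1 at 0, and of the plasmacytoid dendritic cell markers CLEC4C was at 0, LILRA4 at most 0.144 and IL3RA, also a receptor of myeloid progenitors, at 4.04 to 7.12 in the CD34-expressing and 6.83 to 16.4 in the CD34-silent libraries. EPCAM, an epithelial adhesion protein, stood at 77.3 to 104 in the CD34-expressing libraries and at most 0.0108 in the CD34-silent ones, while KRT19 was at most 0.0144. The part of these differences in the results below was not tested. In bulk RNA, fewer cells that express a gene and less RNA of it per cell cannot be told apart.

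Compared per length, the interferon-stimulated genes were spread over the whole range of expression. The median FPKM over the 12 libraries (the authors' CPM divided by the gene's exon length in kilobases) was highest for IFITM2 at 30.0, with a range of 16.0 to 58.7, followed by IFITM1 at 24.6, IFI16 at 20.8 and IFI6 at 12.9. The median member lay at 1.18 FPKM, against 3.02 for the 15863 genes with at least 600 reads, and 16 of the 38 members had a median under 1 FPKM. ISG15 had a median of 1.13 FPKM, IFIT1 0.526, MX1 0.0310, OAS2 0.0170 and IFI44L 0.00192. Neighbours in the order had overlapping ranges except USP18, at 0.153 to 0.513, and OAS3 below it, at 0.0150 to 0.0894. PARP14, at 2.28 to 3.56 FPKM, and IFIT3, at 1.53 to 2.70, had the narrowest ranges of the 38, while IFITM3 ran from 0.292 to 58.3 and TRIM22 from 0.0145 to 3.03.

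**Figure D1:**
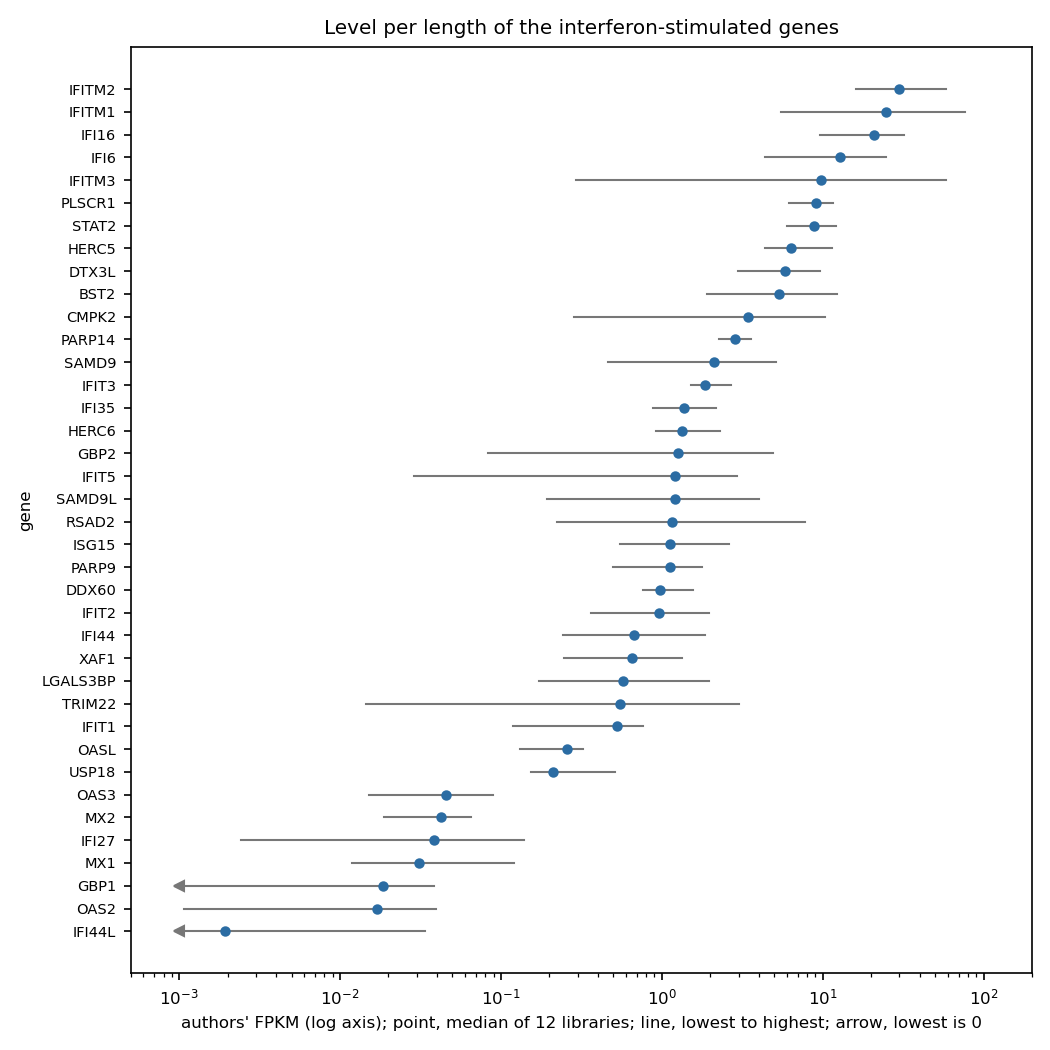
Level per length of the 38 matched genes: the horizontal axis gives the authors' FPKM on a log scale, points are medians over the 12 libraries and lines run from the lowest to the highest library, with an arrow where the lowest is 0. IFITM2, IFITM1, IFI16 and IFI6 lead with medians of 12.9 or more, and IFI44L, OAS2 and GBP1 are last with medians under 0.02.

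Reading the libraries by CD34, 17 of the 38 members were higher in every CD34-silent library than in any CD34-expressing one, 4 were lower in every one and 17 overlapped. Among the 15863 genes with at least 600 reads, 17.5% were higher and 15.6% lower without overlap in the same split. Of the 32 members in that range, 16 were higher and 3 lower. With the authors' CPM and with DESeq2's size factors in place of TMM, 16 members were higher and 3 lower under all 3 scalings. DTX3L (higher) and HERC5 (lower) overlapped under DESeq2's size factors, and no member turned round. With the authors' CPM, HERC6, IFI35 and PLSCR1 were also higher and IFIT3 lower without overlap. The median of all genes moved by 0.17 on the log2 scale between the sets with the authors' CPM and by 0.10 with DESeq2's size factors, against 0.0054 with TMM. ISRE matches were found on both sides: 8 of the 14 higher members with a promoter in the table had one, all 3 of the lower ones and 8 of the 13 that overlapped.

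**Figure D2:**
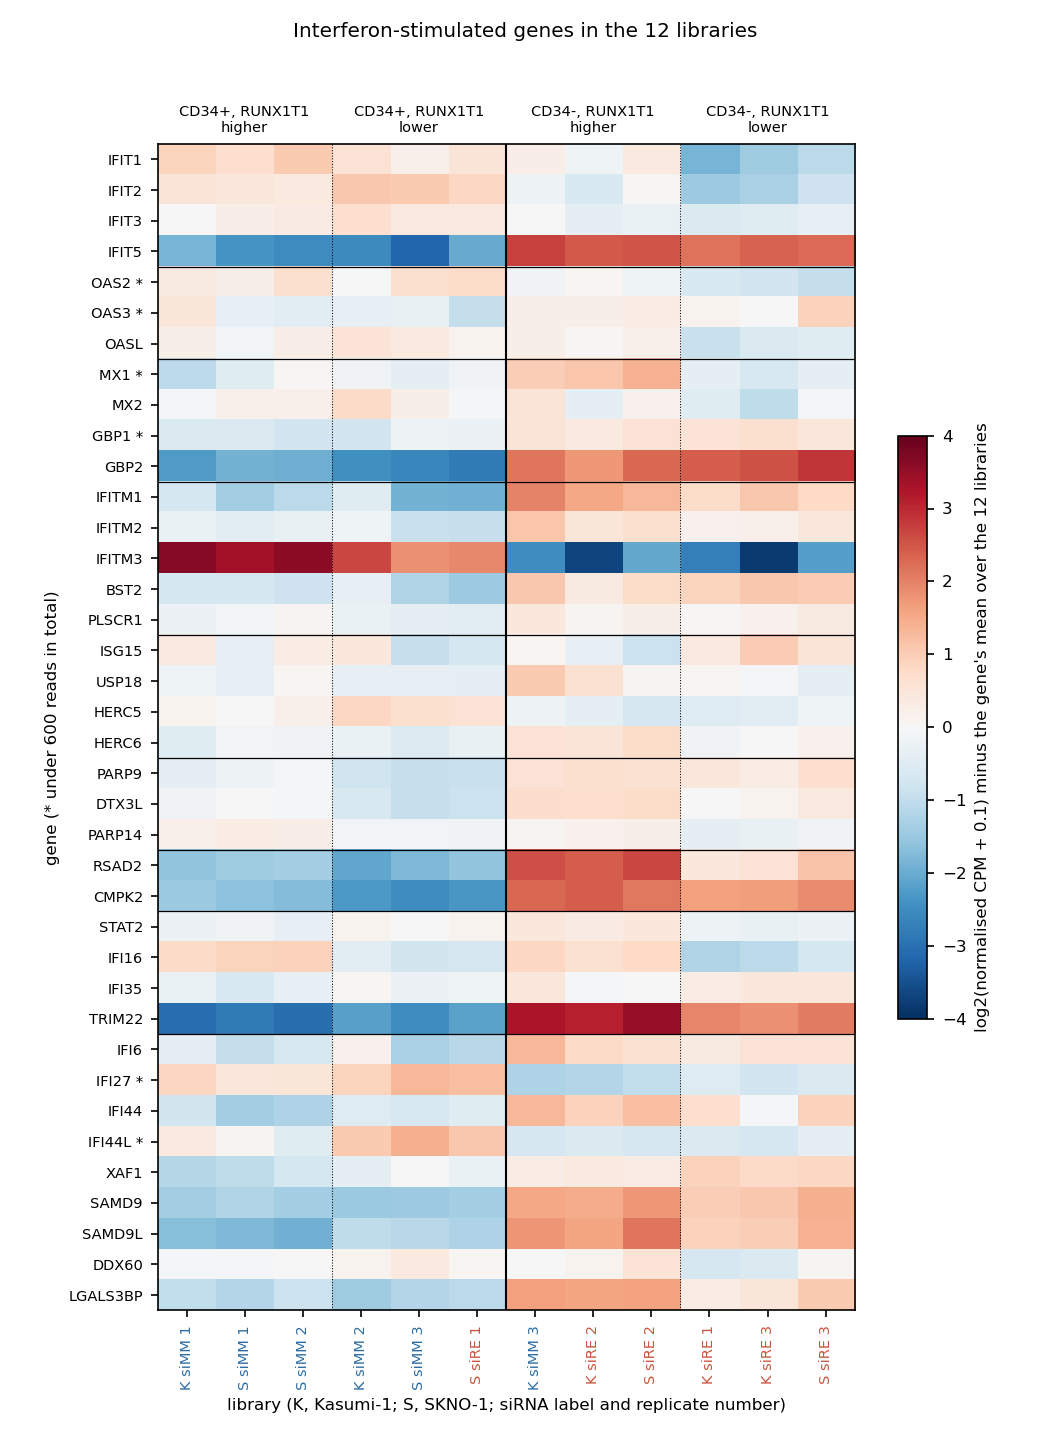
Heat map of the 38 genes (rows, grouped by role) in the 12 libraries (columns, ordered by CD34 and then RUNX1T1): colour gives log2(normalised CPM + 0.1) minus the gene's mean over the libraries, column labels in blue are siMM-mod and in red siRE-mod. The strongest colours change at the solid line between CD34-expressing and CD34-silent libraries, where IFIT5, GBP2, RSAD2, CMPK2 and TRIM22 are higher on the right and IFITM3 is higher on the left.

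Read by RUNX1T1 within the CD34-expressing libraries, 12 members were higher and 10 lower in the 3 libraries with lower RUNX1T1 without overlap, where 18% of all tested genes were higher and 20.2% lower. Within the CD34-silent libraries, 4 members were higher and 21 lower, where 21.7% of all tested genes were higher and 21.6% lower. Of the 32 members with at least 600 reads, 10 were higher and 10 lower in the CD34-expressing libraries. In the CD34-silent ones, 3 of these 32 were higher and 19 lower. XAF1 and IFI27, the latter with only 193 reads in total, were higher with lower RUNX1T1 in both sets. IFIT1, DTX3L, PARP14, RSAD2, CMPK2 and IFI16 were lower in both. IFIT2, STAT2, TRIM22 and SAMD9L were higher in the one set and lower in the other, and GBP2 the reverse. These counts depended on the scaling. Under all 3 scalings, 5 were higher and 8 lower in the CD34-expressing libraries and 4 higher and 13 lower in the CD34-silent ones. XAF1 alone was then higher in both, IFIT1, PARP14 and IFI16 were lower in both, and no member turned round. Opposite directions in the sets held under all 3 scalings for IFIT2, TRIM22 and GBP2 only. Of these, TRIM22 was very low in the CD34-expressing libraries.

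The IFIT proteins bind viral and other foreign RNA and hinder its translation, and their genes lie side by side at chr10:89283694-89420997 on the forward strand. IFIT5 read 0.420, 0.271 and 0.231 normalised CPM in the CD34-expressing libraries with higher RUNX1T1, 0.229, 0.109 and 0.371 in those with lower RUNX1T1, 12.6, 10.4 and 10.8 in the CD34-silent libraries with higher RUNX1T1 and 8.46, 9.61 and 9.05 in those with lower RUNX1T1. It stayed at or under 0.420 in the one set and at or above 8.46 in every library of the other, with no overlap. IFIT1, whose gene ends 8080 bases before IFIT5 begins, did not share this split.
For IFIT1 the values were 3.67, 3.14 and 4.13, then 2.92, 2.23 and 2.83, in the CD34-expressing libraries, and 2.38, 1.70 and 2.60, then 0.462, 0.657 and 0.860, in the CD34-silent ones. The 3 CD34-silent libraries with lower RUNX1T1 were the lowest of the 12, and the libraries with lower RUNX1T1 lay below those with higher in both sets. IFIT2 went up and down with RUNX1T1 according to the set, at 5.19, 4.97 and 4.73, then 7.73, 7.54 and 6.50, in the CD34-expressing libraries and 3.14, 2.34 and 3.72, then 1.24, 1.41 and 1.99, in the CD34-silent ones. All 6 CD34-silent libraries lay below all CD34-expressing ones. IFIT3 moved least, between 3.32 and 7.91 normalised CPM over the 12 libraries. Part of the exon bases of some members is shared with another annotated gene, on the same strand for IFIT2 (8.74%), TRIM22 (10.8%) and GBP2 (8.60%) and on the opposite strand for IFITM3 (24.9%), and reads there could come from either gene.

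**Figure D3:**
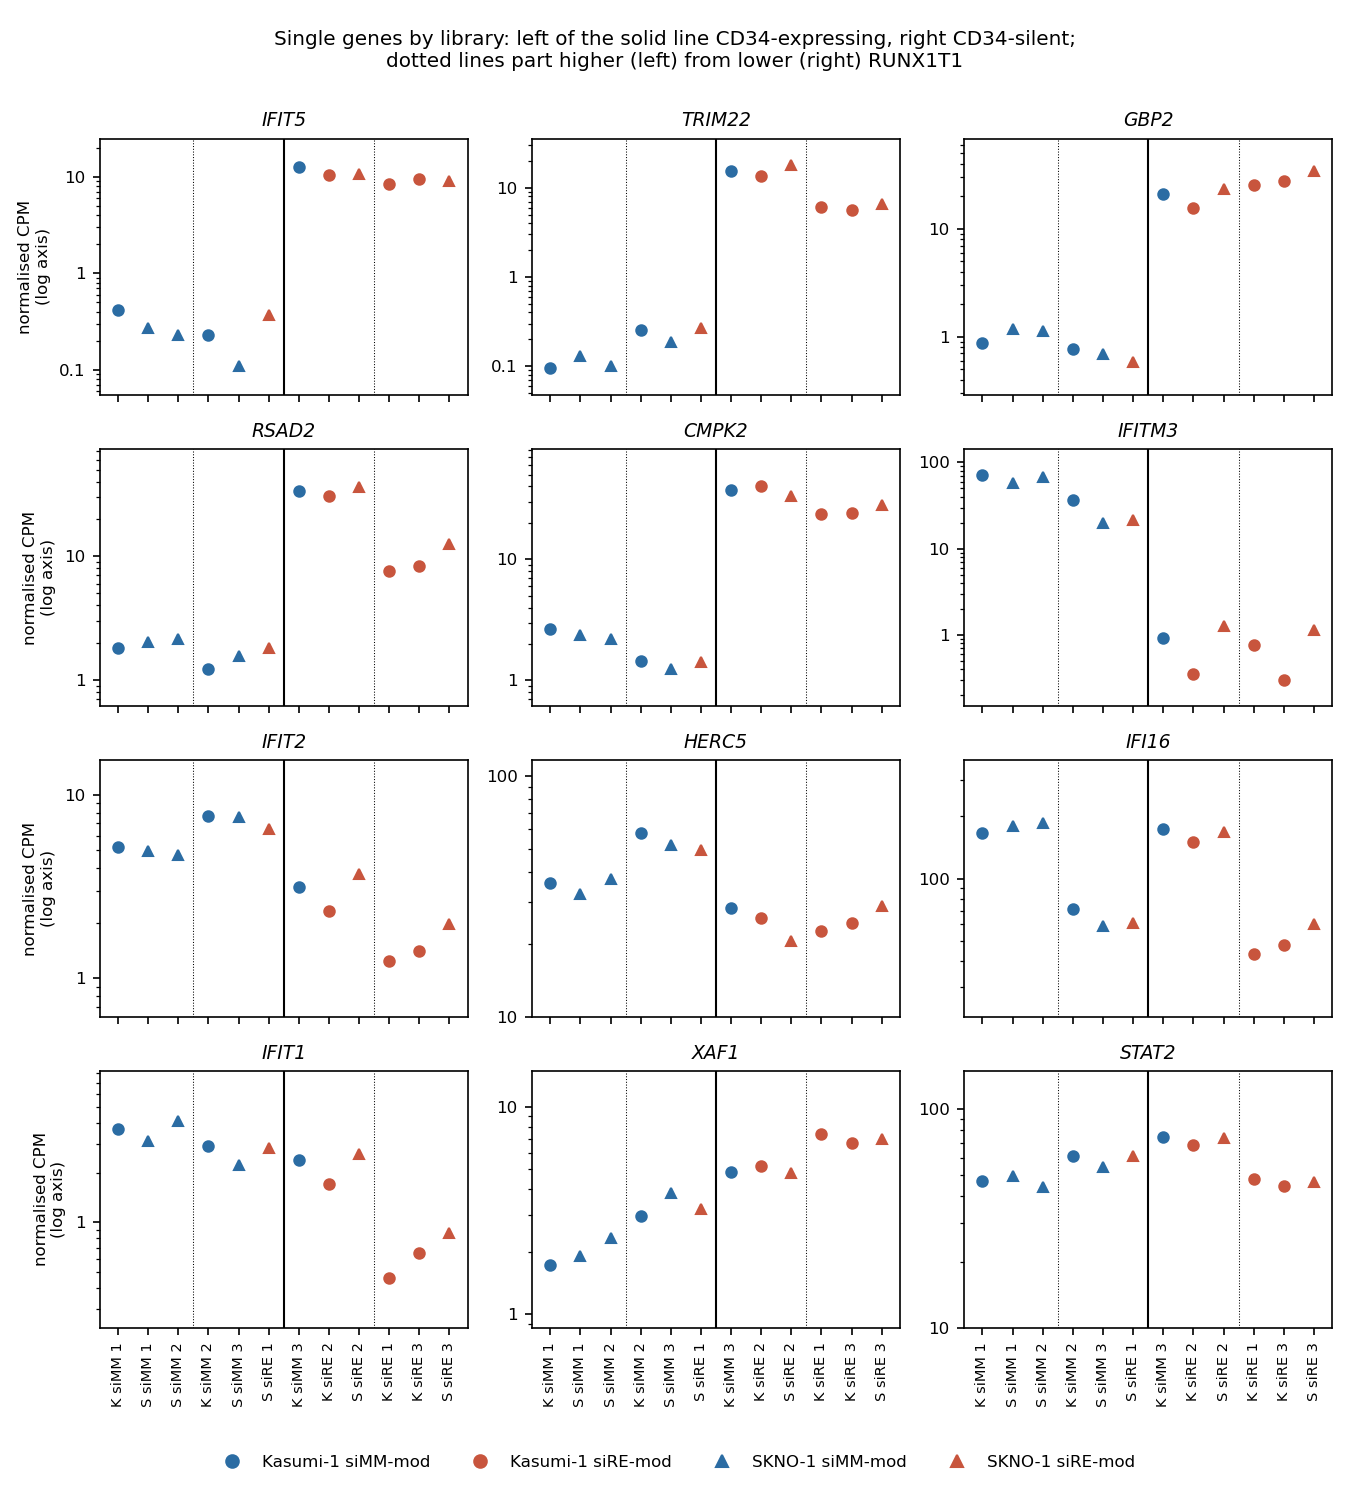
Normalised CPM (log axis) of 12 members in each of the 12 libraries; circles are Kasumi-1 and triangles SKNO-1 by label, blue is siMM-mod and red siRE-mod, the solid line parts CD34-expressing (left) from CD34-silent (right) libraries and dotted lines part higher from lower RUNX1T1. Each triplet holds libraries of both lines, and 2 of the 4 hold both siRNA labels: in the panel of IFI16 the values of the 4 triplets are 166 to 187, 59.1 to 71.5, 151 to 175 and 43.0 to 60.5.

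The OAS enzymes make the messenger 2′-5′ oligoadenylate that activates RNase L. All 3 matched members were close to silent: OAS2 did not exceed 0.237 normalised CPM in any library, OAS3 0.704 and OASL, which lacks that enzyme activity, 1.24. OAS2 had 113 reads in total and OAS3 429. OASL, with 888 reads, read 0.963, 0.828 and 0.954 in the CD34-silent libraries with higher RUNX1T1 and 0.388, 0.501 and 0.547 in those with lower RUNX1T1, and the first of these triplets lay within the range of the CD34-expressing libraries, 0.741 to 1.24.

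Among the large GTPases, GBP2 split the libraries by CD34 while the antiviral MX proteins, which trap viral nucleocapsids, stayed low. GBP2, which acts on membranes of intracellular pathogens, stood at 0.881, 1.18 and 1.14, then 0.764, 0.687 and 0.579, in the CD34-expressing libraries and at 20.9, 15.5 and 23.2, then 25.2, 27.6 and 34.3, in the CD34-silent ones. Within the CD34-silent libraries it was highest where RUNX1T1 was lower, and within the CD34-expressing ones lowest there. Its paralog GBP1, 40901 bases away, was listed at 0 in 2 libraries and did not exceed 0.167 in any.
MX1 was at most 0.346 normalised CPM in the CD34-expressing libraries, 0.768, 0.836 and 1.04 in the CD34-silent libraries with higher RUNX1T1 and 0.239, 0.177 and 0.241 in those with lower RUNX1T1. MX2 stayed between 0.219 and 0.993. For scale, 3 counts in a library correspond to 0.0195 to 0.0468 normalised CPM, so a gene at 0 may lie up to that level, for counting error only.

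The IFITM proteins sit in membranes and block virus fusion, and the 3 genes lie within chr11:307631-327537. They did not move together. IFITM3 read 70.9, 58.5 and 67.9 in the CD34-expressing libraries with higher RUNX1T1, 36.6, 20.1 and 21.6 in those with lower RUNX1T1, and 0.920, 0.353 and 1.27, then 0.759, 0.302 and 1.15, in the CD34-silent libraries. Every CD34-expressing library lay above 20 and every CD34-silent one at or under 1.27, and among the CD34-expressing libraries those with lower RUNX1T1 were lower.
IFITM1, 4403 bases from IFITM3 and on the other strand, ran the other way, at 11.8, 7.18 and 8.96, then 13.6, 5.07 and 4.99, in the CD34-expressing libraries and 76.7, 56.8 and 48.7, then 32.0, 40.4 and 33.2, in the CD34-silent ones. IFITM2 was present in every library, at 23.9 to 40.2 in the CD34-expressing and 50.4 to 96.8 in the CD34-silent ones, with no overlap. The promoters printed above for IFITM1 and IFITM3 both hold ISRE matches, and the genes split in opposite directions. The part of these matches in the levels was not tested. IFITM1 shares 37.5% of its exon bases with IFITM2 on the same strand, the 3 coding sequences are close copies, and how reads that fit several genes were counted is not given in the sources used here, so levels of the single IFITM genes are uncertain.
BST2 (tetherin), which holds budding viruses at the cell surface, was 2.03 to 4.52 in the CD34-expressing and 7.33 to 12.2 in the CD34-silent libraries. PLSCR1, a lipid scramblase with antiviral activity, changed little, from 27.7 to 50.3 over the 12 libraries, and its sets overlapped.

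ISG15 is a ubiquitin-like protein that is attached to other proteins by HERC5, while USP18 removes it and also blocks IFNAR2. ISG15 was low throughout, between 0.453 and 2.04 normalised CPM, and USP18 lay between 0.365 and 1.17. Their library sets overlapped by CD34. HERC5 was the most abundant of this group per length and was lower in the CD34-silent libraries, with 35.9, 32.3 and 37.5, then 58.2, 51.5 and 49.1, in the CD34-expressing and 28.3, 25.7 and 20.7, then 22.8, 24.5 and 28.9, in the CD34-silent libraries. It was highest in the 3 CD34-expressing libraries with lower RUNX1T1, which overlapped with the other 3 under DESeq2's size factors. HERC6, which lies 14007 bases from HERC5, was highest in the CD34-silent libraries with higher RUNX1T1, at 12.1, 11.6 and 13.2, and between 5.43 and 9.00 elsewhere.

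PARP9 and its partner DTX3L form a complex that modifies histones, and the pair are transcribed in opposite directions from overlapping starts at chr3:122564338-122564577. DTX3L stood at 28.9, 31.1 and 29.8, then 20.0, 16.6 and 17.3, in the CD34-expressing libraries and 51.2, 50.8 and 53.0, then 32.1, 34.9 and 41.9, in the CD34-silent ones, so that libraries with lower RUNX1T1 were lower in each set, which for the CD34-silent set was lost with DESeq2's size factors. PARP9 showed the same split by CD34, from 4.81 to 8.79 against 11.2 to 14.7. PARP14, a further member of that enzyme family, overlapped by CD34 and was lower with lower RUNX1T1 in both sets, at 34.4, 36.9 and 36.0 against 27.4, 27.5 and 27.0 and 32.0, 33.5 and 35.1 against 22.7, 24.3 and 26.9.

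RSAD2 (viperin) makes a chain-terminating nucleotide from CTP, and CMPK2 supplies the CTP. Their genes overlap head to head at chr2:6865806-6866635. RSAD2 read 1.82, 2.04 and 2.14, then 1.24, 1.55 and 1.80, in the CD34-expressing libraries, 33.8, 30.5 and 36.3 in the CD34-silent libraries with higher RUNX1T1 and 7.54, 8.35 and 12.5 in those with lower RUNX1T1. CMPK2 read 2.64, 2.37 and 2.19, then 1.44, 1.23 and 1.42, then 37.2, 40.5 and 33.2, then 23.6, 24.4 and 28.1, in the same order. Both genes were higher in every CD34-silent library, and both were lower where RUNX1T1 was lower in either set, although for RSAD2 in the CD34-expressing libraries this held by a narrow margin and was lost with the authors' CPM. For CMPK2 in the CD34-silent libraries the order was lost with DESeq2's size factors. The promoters of both held no ISRE match in the 250 bases searched.

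Of the members that act in transcription or sense DNA, IFI16 was ordered by RUNX1T1 in both sets and overlapped by CD34. IFI16, a nuclear sensor of DNA at chr1:158999968-159055155, read 166, 180.2 and 187 in the CD34-expressing libraries with higher RUNX1T1 and 71.5, 59.1 and 61.1 in those with lower RUNX1T1. In the CD34-silent libraries it read 175, 151 and 169 with higher RUNX1T1 and 43.0, 47.6 and 60.5 with lower. The 6 libraries with higher RUNX1T1 of their set lay between 151 and 187 and the other 6 between 43.0 and 71.5, under either siRNA label and in either line.
STAT2, the DNA-binding complex's own subunit, varied from 43.9 to 74.6 and was highest in the CD34-silent libraries with higher RUNX1T1, at 74.6, 68.3 and 73.8. TRIM22, a ubiquitin ligase that restricts viruses, read 0.0949, 0.128 and 0.101, then 0.255, 0.187 and 0.267, in the CD34-expressing libraries and 15.4, 13.7 and 17.9, then 6.12, 5.60 and 6.53, in the CD34-silent ones. It was lowest in the CD34-expressing libraries with higher RUNX1T1 and highest in the CD34-silent libraries with higher RUNX1T1. IFI35, a binding partner of other interferon-induced proteins, stayed between 1.85 and 4.01.

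Of the remaining members, 6 of 9 were higher in every CD34-silent library. SAMD9 and SAMD9L, paired growth-restricting genes on chromosome 7, stood at 3.71 to 4.50 and 1.62 to 3.08 in the CD34-expressing and at 20.9 to 35.1 and 12.1 to 28.6 in the CD34-silent libraries. LGALS3BP, a secreted glycoprotein, was 0.688 to 1.07 against 2.50 to 6.49, IFI44 0.527 to 1.08 against 1.45 to 4.06, and IFI6, a mitochondrial protein that delays apoptosis, 3.47 to 9.86 against 11.2 to 22.3.
None of these 5 overlapped. XAF1, which promotes apoptosis by countering XIAP, read 1.72, 1.90 and 2.34, then 2.98, 3.82 and 3.22, then 4.86, 5.18 and 4.78, then 7.43, 6.71 and 7.02 over the 4 triplets, and no library of a triplet overlapped with the next. Reads on 38.3% of its exon bases could also come from a gene on the opposite strand, because the sources used here do not give a strand setting.
DDX60, an RNA helicase of the sensing pathway, lay between 4.33 and 10.4 with overlapping sets. IFI27 and IFI44L had 193 and 75 reads in total and did not exceed 0.546 and 0.328 normalised CPM. IFI27 was higher in each CD34-expressing library than in any CD34-silent one.

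By label, the comparison of siRE-mod with siMM-mod asks what the knockdown did to these genes. In Kasumi-1, 1 member (XAF1) was higher and 7 lower without overlap between the labels, where 10.4% of all genes were higher and 11.1% lower. In SKNO-1, 4 members were higher and 1 (MX2) lower, against 5.94% and 6.01% of all genes. All of these members were among the 32 with at least 600 reads. Under all 3 scalings this left IFIT1, IFIT2, IFIT3 and MX2 lower in Kasumi-1 and IFI44, IFIT5 and TRIM22 higher in SKNO-1. The median of all genes stood at 0.037 on the log2 scale in Kasumi-1 with TMM, at 0.34 with the authors' CPM and at −0.032 with DESeq2's size factors. In Kasumi-1, 29 members were tested among 13608 genes, and none passed an adjusted p of 0.05 in edgeR's quasi-likelihood test, as 0% of all genes did. At an unadjusted p under 0.05 there were 2435 genes, 17.9% of those tested, and 6 members, of which 1 was higher and 5 lower under the label siRE-mod, where 5.85% of all genes were higher and 12% lower. DESeq2 called 1163 genes (8.55%; 1.57% higher and 6.97% lower) and 2 members, IFIT2 and IFITM3, both lower. The median log2 fold change of the 29 members was 0.18, against 0.020 over all genes.
In SKNO-1, 28 members were tested among 13628 genes and again 0 genes and 0 members were called by edgeR (0%). At an unadjusted p under 0.05 there were 1455 genes (10.7%) and 10 members, all higher under the label siRE-mod, where 8.3% of all genes were higher and 2.38% lower. DESeq2 called 372 genes (2.73%; 2.6% higher and 0.132% lower) and 7 members, all higher: GBP2, CMPK2, RSAD2, SAMD9, SAMD9L, IFIT5 and TRIM22. The median log2 fold change of the 28 members was 0.68, against 0.027 over all genes.

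In Kasumi-1 the log2 fold change of IFITM3 was −6.26 ± 1.57 (SE, adjusted p = 0.252 by edgeR), with 70.9, 36.6 and 0.920 normalised CPM in siMM-mod replicates 1 to 3 and 0.759, 0.353 and 0.302 in the siRE-mod replicates. In the same edgeR fit IFIT2 gave −1.69 ± 0.45 (adjusted p = 0.252), IFIT1 −1.66 ± 0.55 (0.253) and IFIT3 −0.76 ± 0.28 (0.255). The IFIT2, IFIT1 and IFIT3 values of the groups did not overlap, whereas IFIT5 of the same cluster gave 1.13 ± 1.42 (0.666).
The members of highest level per length in the other roles gave in Kasumi-1 1.62 ± 1.30 for GBP2, 1.12 ± 1.20 for CMPK2, −0.77 ± 0.60 for IFI16, 0.24 ± 0.37 for DTX3L, 0.027 ± 0.44 for IFI6 and −0.071 ± 0.38 for IFITM2, with adjusted p from 0.501 to 0.976 in edgeR. HERC5 gave −0.74 ± 0.28 (adjusted p = 0.262 by edgeR). TRIM22, SAMD9L and SAMD9 gave 0.72 ± 1.69, 0.74 ± 0.92 and 0.93 ± 0.87 (adjusted p of 0.823, 0.662 and 0.567).

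In SKNO-1 the smallest p-values belonged to IFIT5 at 5.03 ± 1.22, TRIM22 at 5.87 ± 1.43, SAMD9L at 2.94 ± 0.82 and SAMD9 at 2.44 ± 0.71 on the log2 scale, each with an adjusted p of 0.466 in edgeR. For IFIT5 the SKNO-1 siMM-mod replicates held 0.271, 0.231 and 0.109 normalised CPM and the siRE-mod replicates 0.371, 10.8 and 9.05. Replicate 1 of siRE-mod sat with the siMM-mod libraries and the other 2 far above. GBP2 gave 4.25 ± 1.27 and CMPK2 3.42 ± 1.03 (adjusted p = 0.466 for both by edgeR), and IFI6 1.15 ± 0.50 (0.472).
IFITM3 was lower by label in SKNO-1 as well, at −2.58 ± 1.26 (0.497), with 21.6, 1.27 and 1.15 normalised CPM under siRE-mod against 58.5, 67.9 and 20.1. The remaining genes named in Kasumi-1 gave −0.58 ± 0.57 for IFIT1, −0.49 ± 0.52 for IFIT2, −0.35 ± 0.34 for IFIT3, −0.54 ± 0.57 for IFI16, −0.30 ± 0.37 for HERC5, 0.53 ± 0.44 for DTX3L and 0.72 ± 0.40 for IFITM2, with adjusted p from 0.525 to 0.793.

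**Figure D4:**
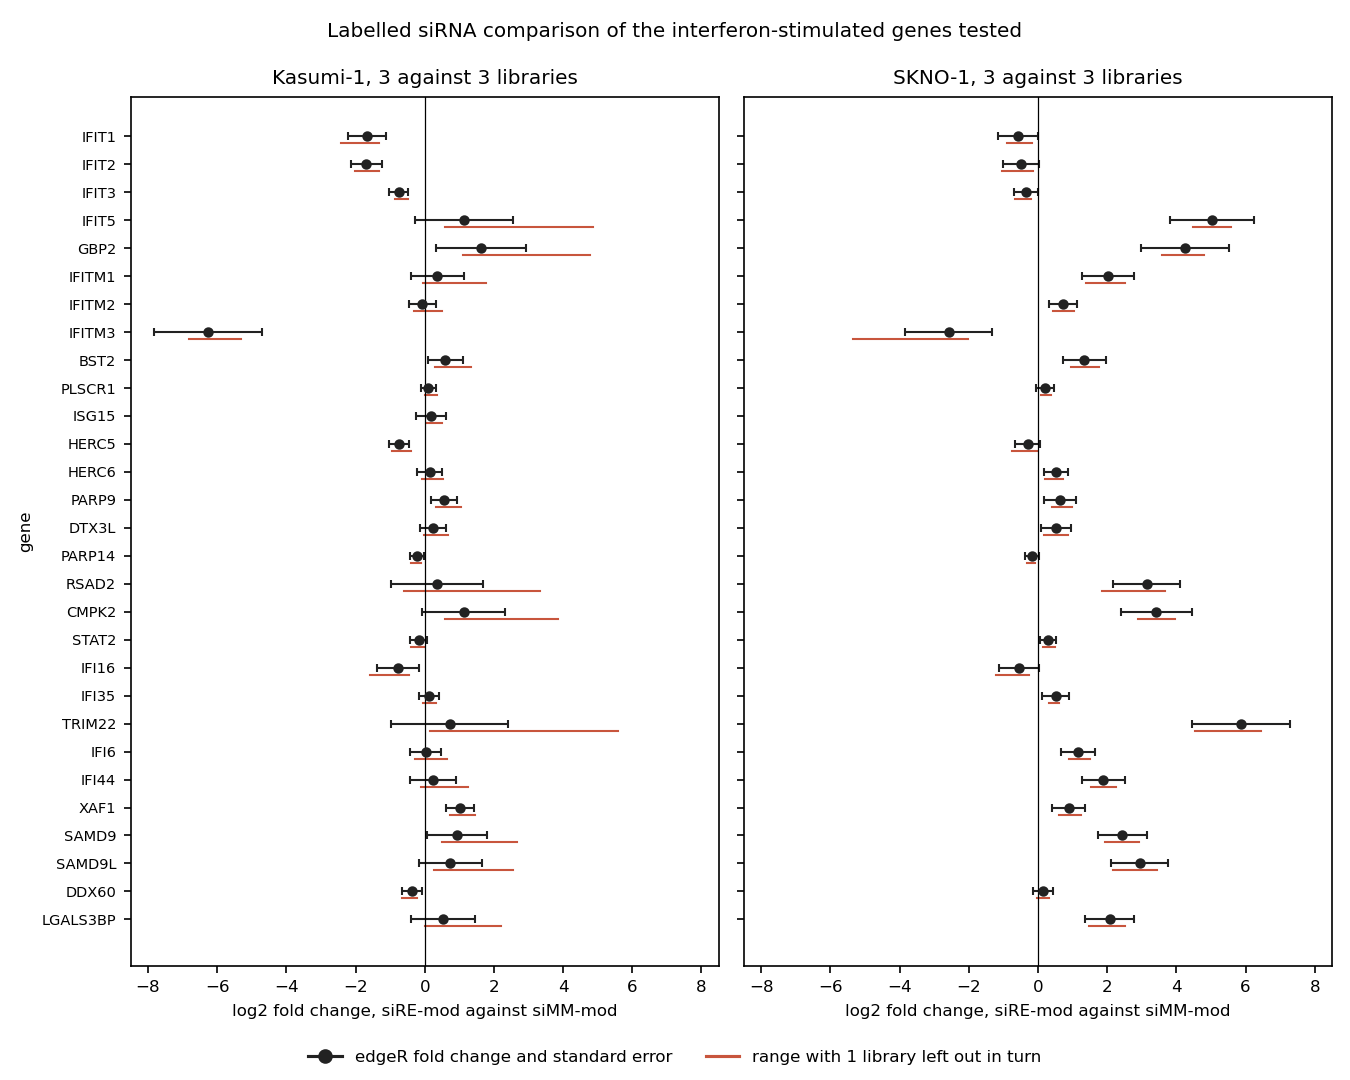
Log2 fold change of siRE-mod against siMM-mod (horizontal axis) of each member tested in Kasumi-1 (left, 29 genes) and SKNO-1 (right, 28 genes); points are edgeR estimates, black bars their standard error and red lines the range of estimates with 1 library left out in turn. The red line of IFIT5 in Kasumi-1 runs from 0.58 to 4.87 around an estimate of 1.13, and no gene shown has an adjusted p under 0.05 with all libraries.

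In both lines a single library decided the calls. With Kasumi-1 siMM-mod replicate 3 left out, the only CD34-silent one under that label in Kasumi-1, edgeR called 4250 genes (32.2%) and 17 members. Of these, GBP2, CMPK2, RSAD2, PARP9, SAMD9, SAMD9L, IFIT5, IFITM2, IFITM1, TRIM22, XAF1, LGALS3BP and BST2 were higher, where 16.5% of all genes were, and HERC5, IFIT2, IFIT3 and IFITM3 were lower, where 15.7% were. The comparison then set 2 CD34-expressing libraries against 3 CD34-silent ones. Without SKNO-1 siRE-mod replicate 1, the only CD34-expressing library under that label, 2535 genes (19.3%) and 14 members were called, 13 higher (10.8% of all genes) and IFITM3 lower (8.55%).
This left 3 CD34-expressing libraries against 2 CD34-silent ones. No other library left out gave a call in either line. With the CD34 set as a term of the fit, an alternative chosen after the data were seen, 0 genes and 0 members were called in either line, and the median log2 fold change of the members became −0.42 in Kasumi-1 and −0.041 in SKNO-1. The siRNA term of that fit rests on 1 library in each line. In Kasumi-1, siMM-mod replicate 3 alone stood against the 3 siRE-mod libraries of its CD34 set. In SKNO-1, siRE-mod replicate 1 alone stood against the 3 siMM-mod libraries of its set. The part of the CD34 set in the labelled differences was not tested beyond this fit.

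Whether the siRNA difference itself differed between the labelled lines was tested as an interaction. The line labels cross the CD34 and RUNX1T1 sets. This fit and the fits over and between the lines therefore compare libraries as labelled. In them, a difference between the lines cannot be told apart from that mixture. Of 32 members tested among 15863 genes, 0 members and 0 genes (0%) passed edgeR's adjusted p of 0.05 for the interaction of line and siRNA. At an unadjusted p under 0.05 there were 106 genes (0.668%; 0.0189% higher and 0.649% lower in Kasumi-1) and 0 members, and DESeq2 called 127 genes (0.801%, all lower) and 0 members. The median difference of the log2 fold changes, Kasumi-1 minus SKNO-1, was −0.79 over the members and −0.10 over all genes. Over both lines together, with line as a term, siRE-mod against siMM-mod gave 0 calls in edgeR (0%), 4959 genes (31.3%; 15.7% higher and 15.6% lower) and 12 members, 7 higher and 5 lower, at an unadjusted p under 0.05, and 3449 genes (21.7%; 9.46% higher and 12.3% lower) and 9 members by DESeq2.
Of those 9, GBP2, SAMD9, SAMD9L, TRIM22 and XAF1 were higher and IFIT1, IFIT2, IFIT3 and IFITM3 lower. OASL, the OAS gene of highest level per length, had too few reads for a test within a line and gave −0.55 ± 0.27 here (adjusted p = 0.187 by edgeR). The smallest adjusted p of a member in edgeR was that of IFITM3, 0.0776, at a log2 fold change of −4.40 ± 1.31. Leaving out Kasumi-1 siMM-mod replicate 3, edgeR called 15 members in this fit, 13 higher and 2 lower (27.8% of all genes, 16.3% higher and 11.5% lower). Leaving out SKNO-1 siRE-mod replicate 1 it called 9, 4 higher and 5 lower (26.6%, 11.2% and 15.4%), and leaving out SKNO-1 siMM-mod replicate 3 it called 0 members and 860 genes (5.54%, 1.77% and 3.77%). Between the lines, with siRNA as a term, 0 genes (0%) and 0 members were called, 2050 genes (12.9%; 6.39% higher and 6.54% lower in Kasumi-1) and 1 member, IFI6, higher in Kasumi-1, had an unadjusted p under 0.05, and DESeq2 called 272 genes (1.71%; 1.1% and 0.611%) and 0 members. Leaving out SKNO-1 siRE-mod replicate 3, edgeR called 70 genes (0.451%; 0.4% and 0.0516%) and 0 members.

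The genes upstream were counted over 33 receptors, kinases, factors, brakes and sensors, of which 27 had at least 600 reads. By label, none passed edgeR's adjusted p of 0.05 in Kasumi-1 (26 tested) or SKNO-1 (25 tested). At an unadjusted p under 0.05 there were 0 in Kasumi-1, where 17.9% of all genes were under it. In SKNO-1 there were 6, all higher, where 10.7% of all genes were under it, 8.3% higher and 2.38% lower. DESeq2 called 0 and 2, against 8.55% and 2.73% of all genes. Read by CD34, 12 of the 27 were higher in every CD34-silent library and 1 was lower, where 17.5% of all genes were higher and 15.6% lower. The pathway genes given with values here, other than IRF9 and IRF7, were chosen after their values were seen. The receptor chain IFNGR1 stood at 27.6 to 42.9 in the CD34-expressing and 78.7 to 117 in the CD34-silent libraries, and the RNA sensors IFIH1 (MDA5) at 6.64 to 7.73 and 31.3 to 44.3 and DDX58 (RIG-I) at 3.79 to 5.79 and 11.4 to 16.2.
The receptor chain IFNAR1 differed less, at 48.4 to 54.1 against 59.0 to 86.7, and IFNAR2 overlapped. Of 6 brakes of the pathway, PTPN2, PIAS1 and USP25 overlapped and 3 were higher in the CD34-silent libraries: SOCS1, an inhibitor of JAK kinases, at 0.0136 to 0.140 against 0.636 to 4.59, SOCS3 at 1.14 to 1.88 against 4.90 to 26.5 and the phosphatase PTPN6 at 56.0 to 119 against 217 to 533. MAVS, the adaptor of both RNA sensors, was the 1 lower gene, at 115 to 152 against 75.7 to 112. IRF9, the DNA-binding partner of STAT2, was low, at 0.274 to 1.24, and IRF7, a factor that amplifies interferon production, ran from 2.45 to 4.87; both overlapped by CD34.
By label, the log2 fold change of IRF7 was −0.11 ± 0.23 in Kasumi-1 (adjusted p = 0.809 by edgeR) and 0.21 ± 0.43 in SKNO-1 (0.886).

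**Figure D5:**
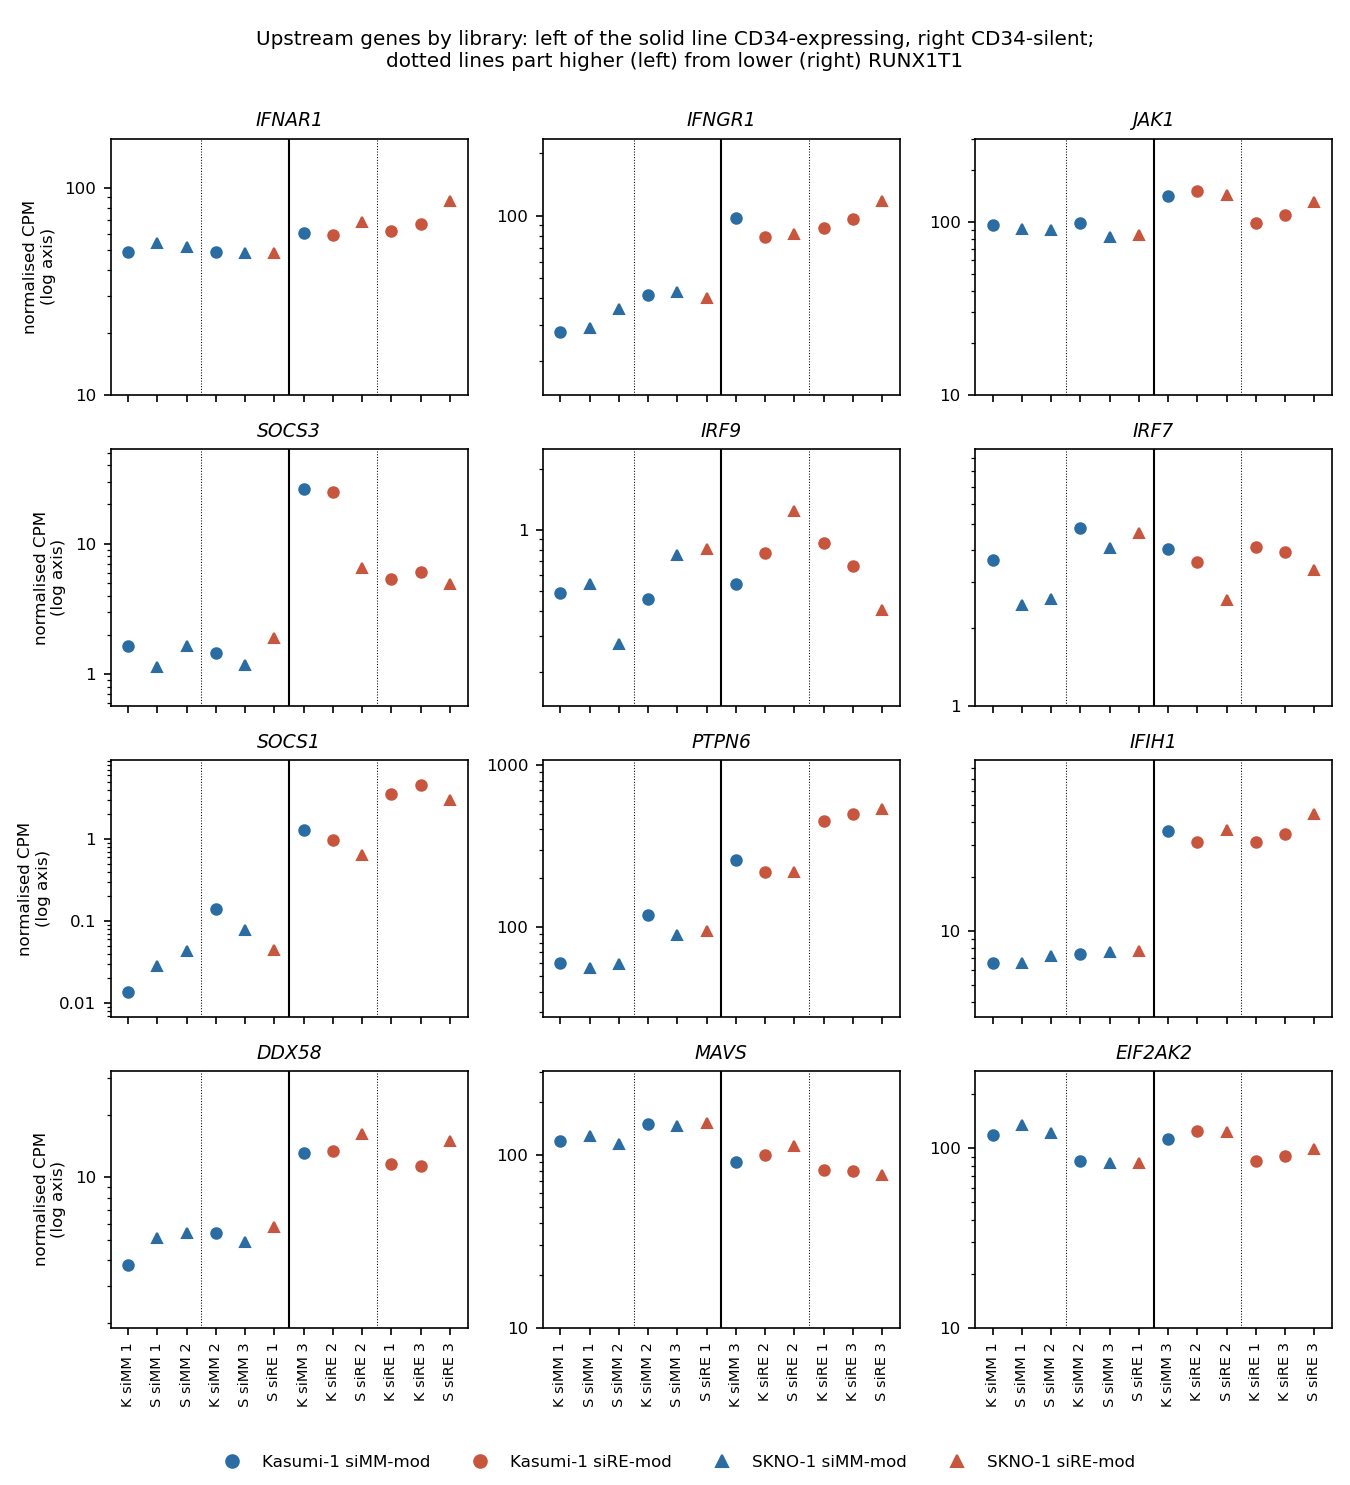
Normalised CPM (log axis) of 12 upstream genes in each of the 12 libraries, with circles for Kasumi-1, triangles for SKNO-1, blue for siMM-mod and red for siRE-mod, and lines as in the plot of single members. IFNGR1, SOCS1, SOCS3, PTPN6, IFIH1 and DDX58 are higher in every library right of the solid line, MAVS is lower there, and IRF9 and IRF7 overlap.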

How the data were processed

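RNA-seq of total RNA from 12 in vitro libraries was analysed. According to the study's methods, the file headers and the submitters' processing notes, the authors trimmed reads with Trim Galore 0.6.5, aligned them to GRCh38 with STAR 2.7.10a and counted them over exons per gene with Subread 1.6.5 (headers: Rsubread 1.32.4 under R 3.5.1). Bowtie2 2.4.5 and HTSeq are also listed. The annotation release, strand setting and treatment of reads on several genes are not given in the sources used here. The authors deposited whole-number counts per gene, CPM, which scales counts to the library total on genes, and FPKM, which is that CPM per kilobase of exon.

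Members were matched by symbol, and the first row was used where a symbol had 2. Groups came from the labels. Genes with at least 600 reads summed over the libraries of a fit were tested with the quasi-likelihood test of edgeR 4.0.16 (R 4.3.3, limma 3.58.1) on the counts as deposited, with TMM normalisation and Benjamini-Hochberg adjusted p of 0.05. Comparisons were siRE-mod against siMM-mod in each line, the difference between lines, both lines together, and Kasumi-1 against SKNO-1. An exact two-sided permutation test of 3 against 3 cannot give a p below 0.1 and was not used. Normalised CPM uses TMM over the 12 libraries. No value was added to levels, and figures show log2(normalised CPM + 0.1) where stated.

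Libraries were also read by CD34 (over 10 normalised CPM or not) and then by RUNX1T1, without a test. Alternatives were DESeq2 1.42.0, its size factors, no filter, edgeR's filterByExpr, a replicate block, 1 fit over all libraries and leaving out each library. The CD34 set as a term, and the scalings of the overlap counts, were added after seeing the data. Fold changes are given for the 4 members with the smallest p in each line, for any member that edgeR called in that line with all libraries, and for the member of each role with the highest median FPKM. The members and lists were chosen with earlier results of these data known. The values of 1 gene of the upstream list are not reported here. Scripts (Python 3.11.15, numpy 2.4.6, pandas 2.3.3, matplotlib 3.10.9) were tested on simulated counts. The limit for a gene without counts covers counting error only. The quasi-likelihood test gives no standard error, so each was taken as the absolute log2 fold change divided by the square root of the F statistic. These standard errors also include the spread between libraries.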

Additional observations from a re-analysis of the deposited data

How the results depend on the processing

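In edgeR, 0 genes and 0 members were called under any alternative other than DESeq2 and leaving out 1 library. DESeq2 called 1163 genes and 2 members in Kasumi-1, 372 and 7 in SKNO-1, 127 and 0 for the difference between the lines, 3449 and 9 over both lines, and 272 and 0 between the lines; the cause was not tested. With 1 library left out, calls ranged from 0 to 4250 genes and 0 to 17 members in Kasumi-1 (without siMM-mod replicate 3), from 0 to 2535 and 0 to 14 in SKNO-1 (without siRE-mod replicate 1), from 0 to 4336 and 0 to 15 over both lines, and from 0 to 70 genes between the lines. The members' median log2 fold change ranged from −0.042 to 0.65 in Kasumi-1 and, for the difference between the lines, from −1.04 to −0.14. Single genes of Kasumi-1 that changed sign ranged from −0.28 to 0.65 (IFI6), from −0.30 to 0.50 (IFITM2) and from −0.011 to 0.68 (DTX3L). A sign change with 1 library left out was found for 9 of 29 members in Kasumi-1 and 1 of 28 (DDX60) in SKNO-1.

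With the CD34 set as a term, chosen after seeing the data, the members' median turned to −0.42 in Kasumi-1 and −0.041 in SKNO-1. It turned to −0.32 over both lines and −0.17 between the lines. Within a line the siRNA term then rests on a single library, Kasumi-1 siMM-mod replicate 3 or SKNO-1 siRE-mod replicate 1. In Kasumi-1, IFIT5 turned to −0.38, TRIM22 to −0.83, SAMD9L to −0.54, SAMD9 to −0.33, DTX3L to −0.35, CMPK2 to −0.31 and IFI6 to −0.74. In SKNO-1, IFIT2 turned to 0.20, IFIT3 to 0.092, HERC5 to 0.30, GBP2 to −0.77, IFITM2 to −0.36, DTX3L to −0.55, CMPK2 to −0.41 and IFI6 to −0.15. In Kasumi-1, IFI6 also turned to −0.019 without a filter and −0.032 with filterByExpr, and IFITM2 to 0.067 with the replicate block.

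Deviations from the mean of the label had correlations of −0.31 to 0.0097 between same-numbered siMM-mod and siRE-mod libraries. Each label mixes libraries of different CD34 or RUNX1T1 level, so these correlations cannot show or exclude pairing. The numbers were not taken to pair the libraries. The replicate block gave 0 calls in each comparison it could be fitted for, where the members' median was 0.20 for Kasumi-1 and 0.57 for SKNO-1, and it could not be fitted between the lines. Of 303 values under other alternatives, 265 were classed as the same, as were 287 of 324 with 1 library left out. For a single gene this meant the same direction and side of the threshold, and for a count of calls no change. For a members' median it meant the same sign and a shift smaller than the typical spread of a member within a group. Depth limits IFI27, IFI44L, GBP1, OAS2, OAS3 and MX1, which had under 600 reads.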

Other observations

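The genes that encode the interferons themselves were close to silent in the in vitro libraries. Of 22 interferon genes listed, 12 had no count in any library and 0 had enough reads for a test. The highest count in 1 library was 13, for IFNB1 (interferon beta), and no interferon gene exceeded 0.203 normalised CPM. The RNA-dependent kinase EIF2AK2 (PKR), which stops translation when it binds double-stranded RNA, was abundant in every library. It was lower without overlap where RUNX1T1 was lower in both CD34 sets. Of all tested genes, 20.2% were lower in this way in the CD34-expressing and 21.6% in the CD34-silent libraries. SOCS1 and PTPN6 of the upstream list were higher in both sets. The other scalings were not applied to the upstream genes. The nucleic acid sensor ZBP1 and the interferon lambda receptor chain IFNLR1 were at or near 0.

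In 4 libraries labelled as Kasumi-1 in vivo (2 siMM-mod and 2 siRE-mod), all 38 matched members were listed at 0. Only 0.0200% to 0.0335% of the reads listed there fell on genes, and 14 to 18 genes had a count, so a level of 0 in these files says nothing about expression. They were not analysed further.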
